A study of Homo sapiens with 2 samples.

Results

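The integrated stress response and the unfolded protein response were described through 40 genes, chosen by symbol from knowledge of these pathways, among 58302 genes in the table. All 40 symbols were found, each on 1 row, and all 40 reached 10 reads in 1 or both libraries, the floor for calling a gene measured. The RNA came from Tu212, an epithelial-derived line that serves as a model for squamous carcinoma of the head and neck. Cells had received a pEZ plasmid carrying PRMT5, an arginine methyltransferase, or the empty pEZ vector, and polyadenylated RNA was taken after 48 h. There was 1 library per group, so no difference below has a replicate check, no p-value is given, and values describe these libraries rather than the conditions. The labels do not say whether the cells were a pool or a clone.

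In the integrated stress response, kinases that sense lack of amino acids, unfolded protein in the endoplasmic reticulum (ER) or other stresses phosphorylate the initiation factor eIF2. General translation then drops while ATF4 mRNA is translated more, and ATF4 protein switches on genes for amino acid synthesis, amino acid uptake and feedback. The unfolded protein response adds the ER sensors IRE1 and ATF6, which raise chaperones and ER quality control. Carcinoma cells are known to use these programmes to live with poor supply of amino acids and a high secretory load. Much of the control lies in translation, phosphorylation and XBP1 mRNA splicing, which gene-level read counts do not measure.

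Reads assigned to genes numbered 19908258 in PRMT5 overexpression and 14119997 in the vector control. PRMT5 itself had 5770 reads in PRMT5 overexpression and 2068 in the vector control, a log2 ratio of 1.01. All 8 squamous epithelial markers were well read, with a summed level, as reads scaled to library size (CPM), of 11499 CPM in PRMT5 overexpression and 10357 CPM in the vector control. The fibroblast list summed to 81.1 CPM in PRMT5 overexpression and 98.3 CPM in the vector control. COL1A1 made up 79.0 CPM of the sum in PRMT5 overexpression and 92.6 CPM in the vector control, while FAP had 0 reads in both. All 5 measured fibroblast genes were below 0, with a median log2 ratio of -2.18. COL1A2 had 7 reads in PRMT5 overexpression and 26 in the vector control, COL3A1 2 reads in PRMT5 overexpression and 11 in the vector control, and DCN 0 reads in PRMT5 overexpression and 12 in the vector control. CDH5 and KDR, of the endothelial list, had 0 reads in both libraries. Of the leukocyte list, PTPRC had 4 reads in PRMT5 overexpression and 0 in the vector control, CD3E 0 reads in PRMT5 overexpression and 6 in the vector control, and ITGAM 3 reads in PRMT5 overexpression and 12 in the vector control. CD68 held most of that list's reads, with a log2 ratio of -0.30. It shares exon bases with AC016876.1 and AC016876.2, which together held 868 reads in PRMT5 overexpression and 403 in the vector control. Once summed with them CD68 was at 0.32, so the direction for CD68 is not settled. In sums, the leukocyte list stood at 17.0 CPM in PRMT5 overexpression and 21.6 CPM in the vector control, and the endothelial list at 4.51 CPM in PRMT5 overexpression and 6.03 CPM in the vector control. Of the leukocyte list 2 of 6 genes were measured, and of the endothelial list also 2 of 6. The fibroblast list has 8 genes. The part of other cells in the results below was not tested, and in bulk RNA fewer cells of a type cannot be told apart from less RNA per cell.

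Most of the 40 genes were slightly lower in the PRMT5 overexpression library, and the clearest differences lay among the transcription factors. The log2 ratio, PRMT5 overexpression minus vector control on TMM-scaled CPM, was below 0 for 32 of 40 genes, and for 30 to 34 under the other settings tried. Of all 17777 measured genes 49.6% were below 0, as were 51.2% of the 13282 well-read genes, meaning those that averaged at least 50 reads. The median log2 ratio was -0.10 over the 40 genes, against -0.01 over the well-read genes. The well-read set is the closer comparison, since the least read member, ATF5, had a mean of 120.5 reads. The central 90% of the well-read genes lay between -0.41 and 0.42, so that most of the 40 genes lay inside the usual spread of this pair of libraries.

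At a threshold of 1.5-fold, 0 of the 40 genes were higher and 2 were lower, ATF5 and NUPR1. Over all measured genes the shares past that threshold were 7.06% higher and 5.33% lower, and over well-read genes 2.70% higher and 2.42% lower. XBP1 fell just short of the threshold, at 1.499-fold lower, and NUPR1 lay past it, at 1.634-fold lower. The count of 2 of 40 lower is close to the share over all measured genes and above that over well-read genes, the closer comparison. It rests on only 2 genes and is a description. The 95% counting interval, which covers counting error only, was wholly below 0 for 22 of the 40 genes and wholly above 0 for 5. In the well-read set these shares were 17.3% and 17.1%. Intervals narrow with depth, so these counts are a description.

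**Figure D1:**
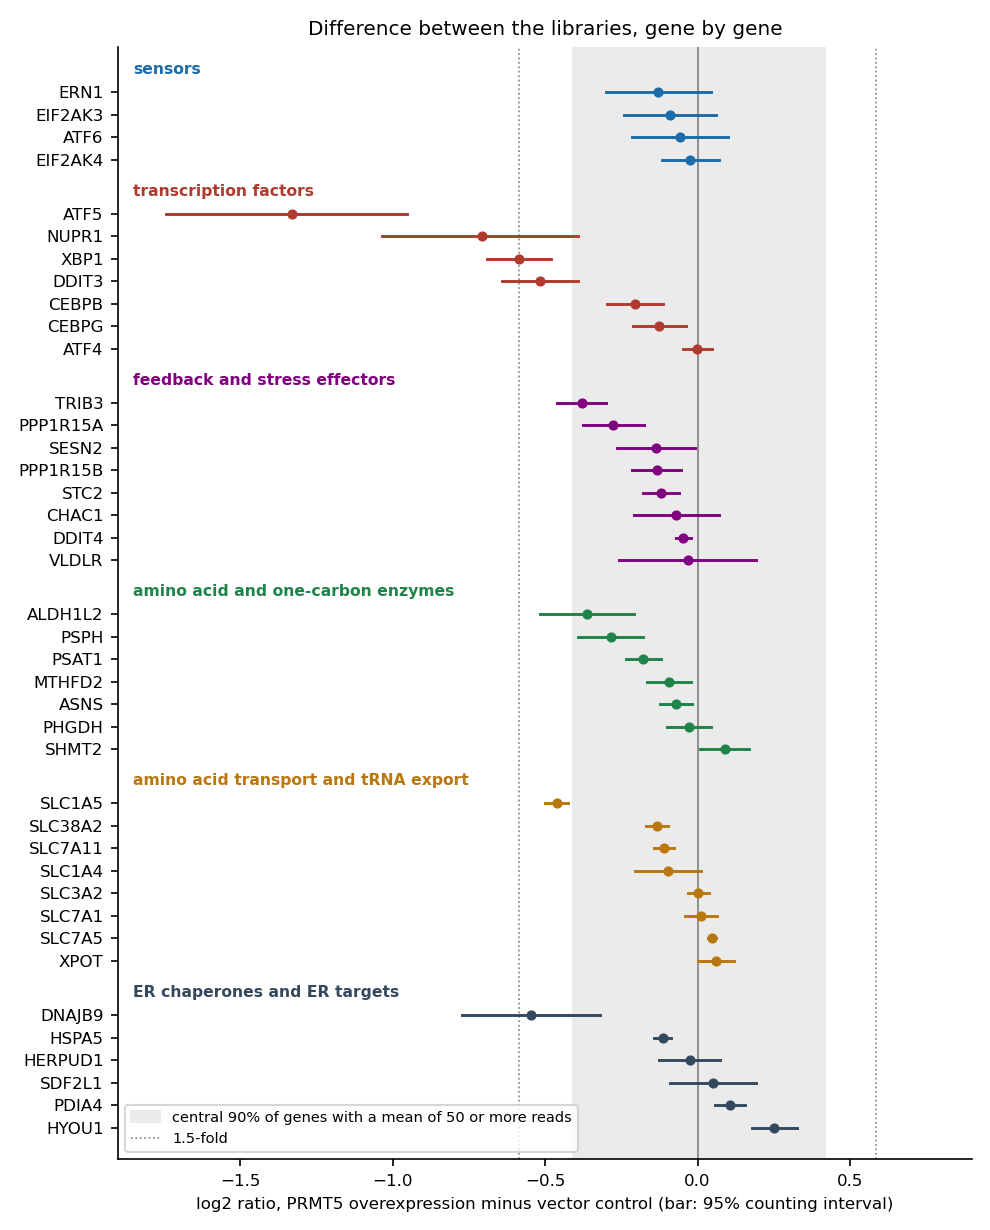
Log2 ratio of each of the 40 genes (PRMT5 overexpression minus vector control, 1 library per group), by role, with bars for 95% counting intervals, a grey band for the central 90% of well-read genes, and dotted lines at 1.5-fold. ATF5 and NUPR1 lie beyond the lower dotted line, XBP1, DDIT3, DNAJB9 and SLC1A5 lie between it and the band, and HYOU1 is the highest at 0.25.

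Promoter sequence was read for the genes because several members share short elements through which ATF4 or the ER stress factors are known to act. RefSeq promoter windows (250 bases before to 50 bases after a start, GRCh38.p14) were found for 35 of the 40 genes. Some genes had several windows, and a match in any of them counted. ALDH1L2, NUPR1, PSPH, SHMT2 and SLC7A11 had no window, so their promoters were not searched. The letters TGATGNAA, the core of the ATF4-C/EBP composite element, occurred on either strand in 9 of 35 genes (25.7%), against 4.46% of 27305 genes with a window. Counted by window rather than by gene, they were in 3.62% of 35116 windows. The ER stress element, CCAAT and CCACG with 9 bases between them, occurred in HSPA5 and XBP1, which is 5.71% of 35 genes against 0.0916% of all genes. Its shorter form, ATTGG and CCACG with 1 base between them, occurred in HERPUD1, HYOU1 and SDF2L1, which is 8.57% against 0.0696%. The UPR element TGACGTGG occurred in HYOU1 alone (2.86% of 35 genes, against 0.927%), where it overlaps a shorter ER stress element by 5 bases. Both ER stress elements contain CCACG. By windows, the ER stress element was in 0.0769%, its shorter form in 0.0541% and the UPR element in 0.729% of all promoters. Genes and elements were both picked from knowledge of the same pathways, so the higher shares among the members are built in and are no finding.

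The stretches around these letters are shown for members with contrasting values, 5′ to 3′ on the strand of the gene, with the matched letters in capitals. XBP1 and HSPA5 share the longer ER element, HYOU1 and HERPUD1 the shorter one, and ASNS, CEBPG and SLC1A5 the composite element. XBP1, ASNS, CEBPG and SLC1A5 had several windows, not all of which held the letters. In SLC1A5 they lay in the window at 46784765 to 46785064, inside the gene. The SLC1A5 window at the 5′ end of the gene, 46788545 to 46788844, held no match.
XBP1 (chr22:28800583-28800641, minus strand): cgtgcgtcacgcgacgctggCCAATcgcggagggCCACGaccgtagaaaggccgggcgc
HSPA5 (chr9:125241371-125241429, minus strand): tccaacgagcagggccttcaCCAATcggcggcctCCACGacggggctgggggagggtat
HYOU1 (chr11:119057254-119057413, minus strand): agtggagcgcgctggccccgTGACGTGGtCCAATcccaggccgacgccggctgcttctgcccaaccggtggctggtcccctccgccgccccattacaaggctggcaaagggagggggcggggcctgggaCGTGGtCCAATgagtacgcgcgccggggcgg
HERPUD1 (chr16:56931946-56932055, plus strand): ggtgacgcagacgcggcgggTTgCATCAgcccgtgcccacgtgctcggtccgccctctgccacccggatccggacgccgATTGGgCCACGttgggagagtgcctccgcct
ASNS (chr7:97872449-97872496, minus strand): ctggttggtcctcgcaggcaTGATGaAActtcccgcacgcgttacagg
CEBPG (chr19:33374051-33374098, plus strand): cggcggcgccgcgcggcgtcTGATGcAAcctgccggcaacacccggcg
SLC1A5 (chr19:46784884-46784931, minus strand): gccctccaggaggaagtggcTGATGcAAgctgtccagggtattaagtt

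In XBP1 the element begins 52 bases before the start, in HSPA5 66 bases before it, and in ASNS the composite letters begin 68 bases before it. XBP1 and HSPA5, with the longer ER element, were both below 0, with log2 ratios of -0.58 and -0.11. Of the genes with the shorter one, HYOU1 was at 0.25, while SDF2L1 at 0.05 and HERPUD1 at -0.03 had intervals that held 0. The 9 genes with the composite letters had a median log2 ratio of -0.07 with 7 below 0, and the 26 genes without them a median of -0.10 with 21 below 0. A match is a description of sequence and not a bound site.

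The sensors of stress were read at nearly equal levels in both libraries. EIF2AK4 (GCN2), the kinase that senses uncharged tRNA, had 2231 reads (113 CPM) in PRMT5 overexpression and 1640 reads (115 CPM) in the vector control. EIF2AK3 (PERK), the ER kinase for eIF2, had 41.9 CPM in PRMT5 overexpression and 44.6 CPM in the vector control. ERN1 (IRE1), the ER kinase and nuclease that splices XBP1 mRNA, was the lowest of the group at 32.3 CPM in PRMT5 overexpression and 35.3 CPM in the vector control, a log2 ratio of -0.13 (interval -0.30 to 0.04). ATF6, the membrane-bound factor released by cleavage, stood at 39.2 CPM in PRMT5 overexpression and 40.7 CPM in the vector control. All 4 counting intervals held 0, and the group median was -0.07.

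Among the 7 transcription regulators, 4 were lower by about 1.4-fold or more, while ATF4 itself did not differ detectably. The group median of -0.52 was the lowest of the 6 role groups, and 6 of the 7 intervals lay wholly below 0. It became -0.196 when each gene was summed with the genes that share its exon bases. ATF4 mRNA, which encodes the central activator, had 8624 reads (437 CPM) in PRMT5 overexpression and 6239 reads (438 CPM) in the vector control. This gave a log2 ratio of 0.00 (interval -0.05 to 0.05), and its sign changed under 4 other settings. Of its 31-base stretches 37.7% also occur in other genes, led by the ATF4 pseudogenes, yet all genes sharing them held only 250 reads in PRMT5 overexpression and 197 in the vector control.

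ATF5, an ATF4-related factor that is itself controlled by translation, was lowest. It had 85 reads (4.31 CPM) in PRMT5 overexpression and 156 reads (10.9 CPM) in the vector control, and was 2.516-fold lower with a log2 ratio of -1.33 (interval -1.74 to -0.95). The gene (ENSG00000169136) sits at 49928702 to 49933935 on chromosome 19, plus strand, in GRCh38 and shares exon bases with the nuclear pore gene NUP62. NUP62 held 1611 reads in PRMT5 overexpression and 1265 in the vector control, so the sum of both, at -0.21, is mostly NUP62. Reads on shared bases cannot be told apart without strand, and how they were divided was not tested.

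NUPR1, a small stress-induced chromatin protein, had 151 reads (7.66 CPM) in PRMT5 overexpression and 179 reads (12.6 CPM) in the vector control. This gave a log2 ratio of -0.71 (interval -1.03 to -0.39). The gene (ENSG00000176046) sits at 28532708 to 28539174 on chromosome 16, minus strand, and has no exon base in common with other counted genes, but 15.2% of its 31-base stretches occur in transcripts of other genes. Over their whole length those genes held 3415377 reads in PRMT5 overexpression and 2463410 in the vector control, far more than NUPR1. How many of those reads fell on the shared stretches was not tested. Both ATF5 and NUPR1 belong to the least read of the 40 genes.

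XBP1, the factor made active by IRE1 splicing and an inducer of ER quality control genes, was well read and lower. It had 1403 reads (71.2 CPM) in PRMT5 overexpression and 1522 reads (107 CPM) in the vector control, a log2 ratio of -0.58 (interval -0.69 to -0.48). The gene (ENSG00000100219) sits at 28794555 to 28800597 on chromosome 22, minus strand. No counted gene shares its exon bases and 0% of its stretches occur in other genes. Spliced and unspliced XBP1 were not analysed here.

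DDIT3 (CHOP), the pro-apoptotic C/EBP relative induced by ATF4, had 1041 reads (52.8 CPM) in PRMT5 overexpression and 1077 reads (75.5 CPM) in the vector control. The log2 ratio came to -0.52 (interval -0.64 to -0.39). The gene (ENSG00000175197) sits at 57516588 to 57520517 on chromosome 12, minus strand, and shares exon bases with the tRNA synthetase gene MARS and with MBD6, which held 4982 reads in PRMT5 overexpression and 3343 in the vector control together. Once summed with them DDIT3 was at -0.02, a sum in which those genes hold most of the reads. CEBPB, a C/EBP factor of stress and inflammation, was at 109 CPM in PRMT5 overexpression and 125 CPM in the vector control, and CEBPG, a dimer partner of ATF4, at 123 CPM in PRMT5 overexpression and 135 CPM in the vector control. Their log2 ratios were -0.21 and -0.13, with both intervals below 0.

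**Figure D2:**
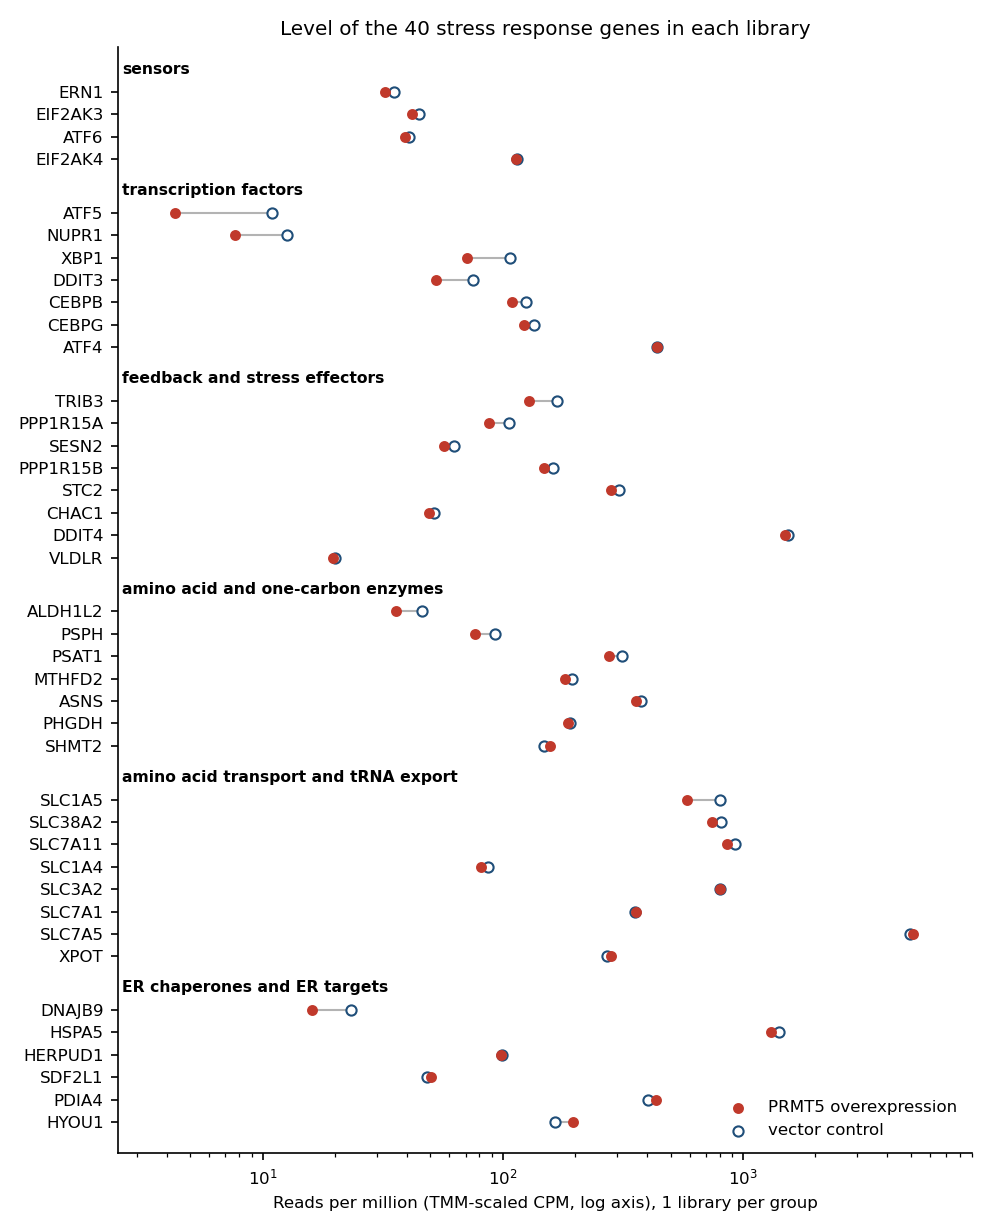
Level of each of the 40 genes on a log axis of TMM-scaled CPM, with filled points for PRMT5 overexpression and open points for the vector control, grouped by role and ordered by log2 ratio. Levels run from 4.31 CPM for ATF5 to 5134 CPM for SLC7A5 in PRMT5 overexpression, and the points separate most for ATF5 and NUPR1.

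All 8 feedback and stress effector genes were below 0, by small amounts, with a median of -0.13. TRIB3, a pseudokinase that restrains ATF4 and AKT, was the lowest of them. It had 2549 reads (129 CPM) in PRMT5 overexpression and 2400 reads (168 CPM) in the vector control, a log2 ratio of -0.38 (interval -0.46 to -0.30). PPP1R15A (GADD34), the inducible subunit that directs phosphatase to eIF2, was at 87.8 CPM in PRMT5 overexpression and 106 CPM in the vector control, with a log2 ratio of -0.28. Its constitutive counterpart PPP1R15B was at -0.13. SESN2, which links amino acid shortage to mTORC1, and STC2, a secreted glycoprotein, were at -0.14 and -0.12.

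The remaining effectors differed less. CHAC1, which degrades glutathione and is a sensitive ATF4 target, had 973 reads (49.4 CPM) in PRMT5 overexpression and 739 reads (51.8 CPM) in the vector control, and its interval of -0.21 to 0.07 held 0. DDIT4 (REDD1), an inhibitor of mTORC1, was abundant, at 1498 CPM in PRMT5 overexpression and 1547 CPM in the vector control. With 29537 reads in PRMT5 overexpression and 22063 in the vector control its interval of -0.07 to -0.02 lay below 0, although the log2 ratio was only -0.05. VLDLR, a lipoprotein receptor, was the highest of the group at -0.03, with 388 reads in PRMT5 overexpression and 287 in the vector control.

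In amino acid and one-carbon synthesis 6 of 7 enzyme genes were below 0, with a median of -0.09. ALDH1L2, the mitochondrial formyl-tetrahydrofolate dehydrogenase, was lowest, with 710 reads (36.0 CPM) in PRMT5 overexpression and 660 reads (46.3 CPM) in the vector control. The log2 ratio was -0.36, or -0.24 once summed with C12orf45. Along the serine pathway, PHGDH, which takes the first step, was at -0.03, PSAT1, which takes the next, at -0.18, and PSPH, which takes the last, at -0.29. PSPH had 76.3 CPM in PRMT5 overexpression and 93.0 CPM in the vector control, and 18.1% of its stretches occur in other genes. Over their whole length those genes held 1103475 reads in PRMT5 overexpression and 803949 in the vector control. ASNS, asparagine synthetase, was at 360 CPM in PRMT5 overexpression and 378 CPM in the vector control, a log2 ratio of -0.07. In the mitochondrial folate steps MTHFD2 was at -0.09, while SHMT2, which transfers a carbon from serine, was the highest, at 157 CPM in PRMT5 overexpression and 148 CPM in the vector control. The SHMT2 log2 ratio came to 0.09 (interval 0.01 to 0.17).

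Of the 8 genes of amino acid transport and tRNA export, 4 were below 0 and 4 above, with a median of -0.05. SLC1A5 (ASCT2), a glutamine carrier, stood below the others. It had 11541 reads (585 CPM) in PRMT5 overexpression and 11496 reads (806 CPM) in the vector control, and was 1.377-fold lower with a log2 ratio of -0.46 (interval -0.50 to -0.42). It shares exon bases with other counted genes, and its sum with them is not reported here. SLC38A2 (SNAT2), which takes up small neutral amino acids, and SLC7A11, the cystine carrier, were at -0.13 and -0.11, and SLC1A4, a carrier of alanine, serine and cysteine, was at -0.10.

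The heteromeric carriers, SLC7A5 and SLC7A11 with their shared chain SLC3A2, showed no common shift, with SLC7A11 at -0.11. SLC7A5 (LAT1), the leucine carrier, was the most read of the 40 genes, and held 33.1% of their reads in PRMT5 overexpression and 30.8% in the vector control. It stood at 5134 CPM in PRMT5 overexpression and 4969 CPM in the vector control, a log2 ratio of 0.05. SLC3A2 (CD98hc), the chain that pairs with SLC7A5 and with SLC7A11, was at 805 CPM in PRMT5 overexpression and 804 CPM in the vector control. Outside these carriers, SLC7A1, which carries arginine and lysine, was at 0.01. XPOT, the tRNA export receptor, was the highest of the role group at 0.06, with 282 CPM in PRMT5 overexpression and 271 CPM in the vector control. The signs of SLC3A2 and SLC7A1 each changed under 2 other settings, and that of EIF2AK4 under 1.

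The ER chaperones and ER targets divided, with 3 genes below 0 and 3 above, and a median of 0.01 that lay between -0.02 and 0.04 under the other settings. HYOU1 (GRP170), a nucleotide exchange factor for BiP, was the highest of all 40 genes. It had 3883 reads (197 CPM) in PRMT5 overexpression and 2360 reads (165 CPM) in the vector control, and was 1.190-fold higher with a log2 ratio of 0.25 (interval 0.18 to 0.33). HYOU1 (ENSG00000149428) sits at 119044189 to 119057202 on chromosome 11, minus strand. PDIA4 (ERp72), a disulfide isomerase, followed at 434 CPM in PRMT5 overexpression and 403 CPM in the vector control, with a log2 ratio of 0.11. SDF2L1, an ER chaperone cofactor, was at 0.05, with an interval of -0.09 to 0.19.

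HSPA5 (BiP), the main ER chaperone, had 25835 reads (1311 CPM) in PRMT5 overexpression and 20234 reads (1419 CPM) in the vector control, a log2 ratio of -0.11. HERPUD1, which organises ER-associated degradation, was at 98.0 CPM in PRMT5 overexpression and 99.7 CPM in the vector control, and its interval held 0. DNAJB9 (ERdj4), an ER co-chaperone and a known target of XBP1, was the lowest. It had 316 reads (16.0 CPM) in PRMT5 overexpression and 334 reads (23.4 CPM) in the vector control, a log2 ratio of -0.55 (interval -0.77 to -0.32). Together with PNPLA8 and THAP5, which share its exon bases and hold more reads, it was at -0.24.

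Exon sharing touched 14 of the 40 genes, and the sums of 13 are shown. For 4 of the 14, DDIT3, ATF5 and DNAJB9 among them, the value of the sum lay outside the counting interval of the gene alone, and for the other 10 it lay inside. The 26 genes with no exon base in common with a counted gene had a median log2 ratio of -0.11, with 20 below 0 and only NUPR1 lower by 1.5-fold or more.

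**Figure D3:**
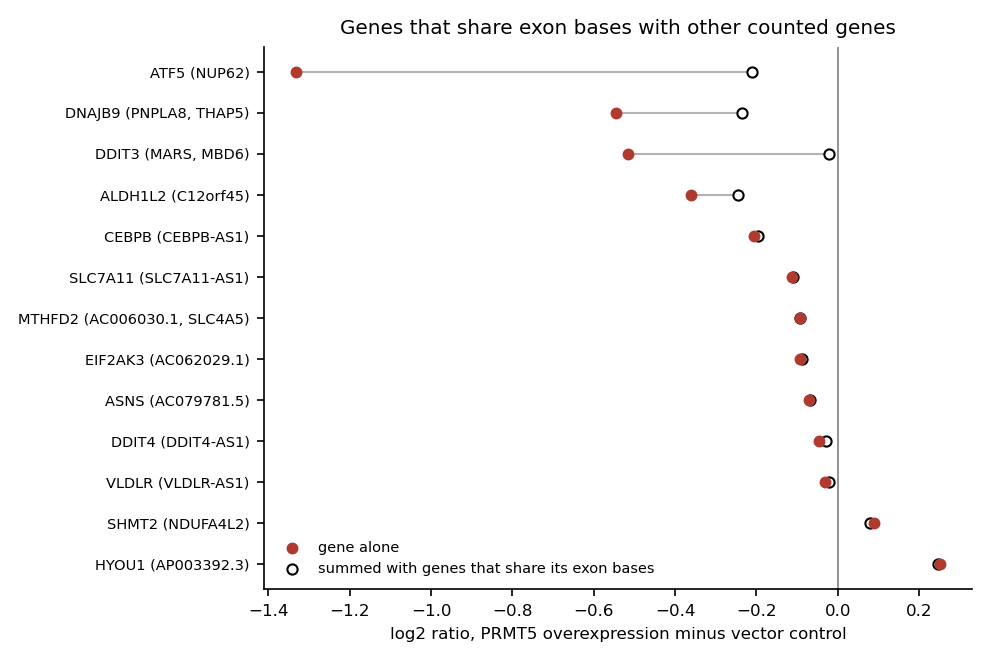
Log2 ratio (PRMT5 overexpression minus vector control, 1 library per group) of 13 genes that share exon bases with other counted genes, alone (filled) and summed with those genes (open), whose names stand in brackets. ATF5, at -1.33 alone and -0.21 summed, and DDIT3, at -0.52 and -0.02, are farthest apart, while HYOU1 and SHMT2 hardly differ.

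Levels between genes were compared per length, as reads per kilobase of merged GENCODE exons scaled to the same total in each library (TPM). TPM carried no TMM scaling and serves here to compare genes within a library, not the libraries with each other. By TPM, SLC7A5 was lower in PRMT5 overexpression than in the vector control. By TMM-scaled CPM it was higher, at 5134 CPM in PRMT5 overexpression and 4969 CPM in the vector control. SLC7A5 came first in both libraries, at 3083 TPM in PRMT5 overexpression and 3216 TPM in the vector control. DDIT4 came next at 2075 TPM in PRMT5 overexpression and 2309 TPM in the vector control, and HSPA5 after it at 956 TPM in PRMT5 overexpression and 1115 TPM in the vector control. SLC1A5, at 501 TPM in PRMT5 overexpression, was close to ATF4 at 496 TPM there, while in the vector control it was at 743 TPM against 535 TPM for ATF4. At the low end were NUPR1 at 3.85 TPM and ATF5 at 4.16 TPM in PRMT5 overexpression, and VLDLR at 6.62 TPM and NUPR1 at 6.79 TPM in the vector control.

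Other genes of the pathways were taken from 8 lists of related genes, with 151 genes of which 143 were measured. Of these 143 genes 82 were below 0, and the median log2 ratio was -0.03. At 1.5-fold 4 lay above the threshold and 7 below it, or 1 and 3 with deposited FPKM. Of all 17777 measured genes 49.6% were below 0, 7.06% were higher by 1.5-fold or more and 5.33% lower. Of the well-read genes 51.2% were below 0, 2.70% were higher and 2.42% lower. The list of 18 genes for eIF2, eIF2B and their regulators had a median of -0.03, with EIF2B2, a subunit of the exchange factor for eIF2, lowest at -0.34 and EIF2AK2 (PKR), the kinase activated by double-stranded RNA, highest at 0.10. The 24 ER folding genes had a median of 0.04, between FKBP2, a prolyl isomerase, at 0.24 and the thioredoxin-like TXNDC11 at -0.31, and 0 of them passed 1.5-fold. TXNDC11 was at 0.07 once summed with genes that share its exon bases.

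The 22 other ATF4 targets had a median of -0.02, which lay between -0.05 and 0.00 under the other settings, and held single genes far from it. ATF3, a stress-induced repressor, had 486 reads (24.7 CPM) in PRMT5 overexpression and 165 reads (11.6 CPM) in the vector control, a log2 ratio of 1.09 (interval 0.83 to 1.36). GDF15, a stress cytokine, went the other way, with 59 reads (2.99 CPM) in PRMT5 overexpression and 103 reads (7.22 CPM) in the vector control, a log2 ratio of -1.25. CTH, cystathionine gamma-lyase, was the lowest of the targets with a mean of 100 or more reads, at -0.41. JDP2, with 40 reads in PRMT5 overexpression and 51 in the vector control, and FGF21, with 13 reads in PRMT5 overexpression and 23 in the vector control, were named after their values were seen and were at -0.80 and -1.22. ATF3 and GDF15 have no exon base in common with another counted gene.

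Among 30 measured genes of ER-associated degradation and the translocon, the median was -0.03, with 17 genes below 0 and 13 above. SEC61A1, the pore subunit of the translocon, had 3123 reads (158 CPM) in PRMT5 overexpression and 4677 reads (328 CPM) in the vector control, a log2 ratio of -1.05 (interval -1.12 to -0.98). It shares exon bases with RUVBL1 and was at -0.62 in their sum. EDEM1, which takes misfolded glycoproteins out of the folding cycle, and SYVN1 (HRD1), an ER ubiquitin ligase, were added after their values were seen, and were at -0.17 and -0.11. The SYVN1 interval of -0.24 to 0.01 held 0. Once summed with genes that share their exon bases, EDEM1 was at -0.15 and SYVN1 at -0.05.

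The other lists had medians near 0. The 10 measured UPR regulators had a median of -0.06, between the ER ubiquitin ligase gene BFAR at -0.11 and TMBIM6 (BI-1), an ER membrane protein that restrains IRE1, at 0.35. The 14 measured genes of other one-carbon steps had a median of -0.01, with GCSH, of the glycine cleavage system, highest at 0.77. GCSH was at 0.51 once summed with genes that share its exon bases. The 16 other amino acid transporters had a median of -0.03, with the cationic amino acid carrier SLC7A2 at -0.71. Among the transporters that averaged at least 100 reads, the taurine carrier SLC6A6 was highest at 0.23 and the lysosomal carrier SLC36A1 lowest at -0.29. Below that depth and named after their values were seen, the aromatic amino acid carrier SLC16A10 had 93 reads in PRMT5 overexpression and 30 in the vector control, a log2 ratio of 1.14, and the glutamate carrier SLC1A2 had 90 reads in PRMT5 overexpression and 35 in the vector control, a log2 ratio of 0.88. SLC7A7, with 6 reads in PRMT5 overexpression and 10 in the vector control, was at -1.07 with an interval that held 0. The 14 mitochondrial stress genes had a median of -0.03, from the protease subunit CLPX at -0.11 to the chaperonin HSPE1 at 0.22. HSPE1 shares exon bases with HSPD1 and HSPE1-MOB4, which hold more reads, and was at -0.02 in their sum. The medians of the other ATF4 target, one-carbon and transporter lists changed sign under at least 1 other setting.

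**Figure D4:**
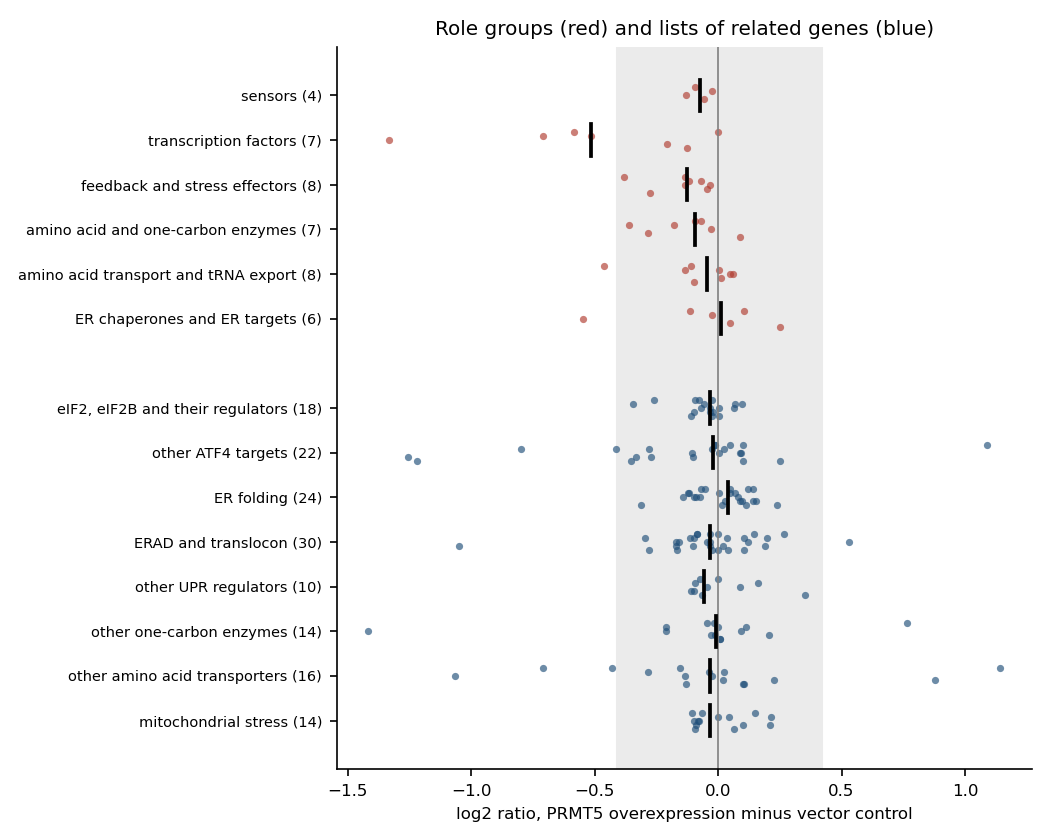
Log2 ratios (PRMT5 overexpression minus vector control, 1 library per group) of the measured genes of the 6 role groups (red) and the 8 lists of related genes (blue), with the number of genes in brackets, black ticks for medians and a grey band for the central 90% of well-read genes. The tick of the transcription factors lies at -0.52, below the band, and all other ticks lie between -0.13 and 0.04.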

How the data were processed

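RNA-seq counts of Tu212 cells were analysed, with 1 library for PRMT5 overexpression and 1 for the vector control, grouped by genotype label. Per the submitters' processing notes, CASAVA 1.8, HISAT2 2.1.0, StringTie 1.3.4b and edgeR were used with GRCh38/hg38; their roles, and whether strand was kept, are not given in the sources used here. The deposited table gave raw counts and FPKM per gene. For all 40 members the ratio of the deposited FPKM equalled that of the counts over total counts within 1%.

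Counts were summed by symbol (221 symbols stood on several rows; each member stood on 1) and scaled by TMM on the measured genes, those reaching 10 reads in 1 or both libraries (edgeR 4.0.16, R 4.3.3; factors 0.990 for PRMT5 overexpression and 1.01 for the vector control). Log2 ratios used a prior count of 1. Intervals are exact binomial (Clopper-Pearson) at 95%. Reads are not independent molecules, so intervals cover counting error only. Gene lists, the genes named from them and the thresholds were chosen with earlier results of these data known. Members were named in full at 1.5-fold, as the highest or lowest of a role group, or as ATF4, DDIT3, XBP1 or HSPA5, with others added for their role. From the other lists, genes past 1.5-fold at 5 CPM or more, and the extremes among genes averaging at least 100 reads, were named, except for some that are not reported here.

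Exon overlap on either strand, merged exon lengths and shared 31-base stretches, taken every 10 bases of the longest transcript, came from GENCODE release 29, where 39 of 40 members had the deposited position (not DDIT3). For exon sharing, only genes that reached 10 reads in 1 or both libraries were taken as counted genes. Results were recomputed with a prior count of 0.1 or 5, with size factors from DESeq2 1.42.0, with total counts alone, with a floor of 0 or 50 reads, with the most read row of each symbol, with scaling on protein-coding genes, with FPKM plus a pseudocount of 1, and with sums over exon-sharing genes, a 2-fold threshold or the mean. The ratio procedure was tested on simulated data. Scripts ran in Python 3.11.15 (scipy 1.17.1, pandas 2.3.3, numpy 2.4.6; figures with matplotlib 3.10.9).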

Additional observations from a re-analysis of the deposited data

How the results depend on the processing

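With 1 library per group no result has a replicate check, and the 1.41-fold difference in depth is part of the pair. The number of the 40 genes lower by 1.5-fold or more was 2, and became 1 with deposited FPKM, 1 in sums with exon-sharing genes and 1 at a 2-fold threshold; total counts alone gave 3. A pseudocount on FPKM shrinks low genes by construction. The transcription factor median of -0.52 became -0.196 in sums with exon-sharing genes. Of the related genes, 7 were lower and 4 higher, against 11 lower with no floor, and 3 lower and 1 higher with deposited FPKM. The cause of these moves was otherwise not tested. The median over the 40 genes lay between -0.13, with total counts alone, and -0.08, with no floor, and their mean was -0.17. Of the 40 genes 36 kept their sign under every setting, with ATF4, EIF2AK4, SLC3A2 and SLC7A1 as exceptions. Of 400 recalculated values for single genes 387 stayed within their counting intervals. Since rescaling shifts all deeply read genes by a like amount, that share is no measure of stability. No paired analysis was possible because there was only 1 library in each group.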
